A study of Mus musculus with 21 samples.

Results

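The stromal matrix and pericyte genes are 36 genes, of 34236 gene names in the count table, that fibroblasts, pericytes and vascular smooth muscle cells are known for: collagens, small proteoglycans, matricellular and elastic fibre proteins, the receptors of those cells, and contractile and actin genes. They were chosen by symbol, and each symbol stood on 1 line of the table. Their levels were followed in 21 libraries of macrophages sorted from kidneys of male C57BL/6J mice labelled as 24 weeks old, to ask in which libraries these transcripts were found and which of them could come from the macrophages themselves. RAS (renal artery stenosis) was made with a cuff around the right renal artery, and in Sham mice the artery was isolated with no cuff. The 3 populations were CD11chi Mϕ (3 Sham and 4 RAS libraries), CD11clo Mϕ (3 Sham and 4 RAS) and KRM, the kidney-resident macrophages with intermediate CD11b and CD11c (4 Sham and 3 RAS). All were sorted as live CD45+ F4/80+ CD64+ cells after enzyme digestion and a density gradient, with T, B and NK cells, erythrocytes and granulocytes gated out, and the labels give 5 hours to the sort. No marker of stromal cells was part of that gate. The study counts mice in each Sham group, and that number equals the Sham libraries here, but no source used here says of each library that it held a single mouse, so p-values measure only the spread between these libraries, which may be technical.

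In the kidney, fibroblasts and pericytes lie between the tubules and the peritubular capillaries, and smooth muscle cells wrap the arterioles. They secrete the fibrillar collagens that give the interstitium its strength and share with tubule and endothelium the making of basement membrane, a sheet of type IV collagen network. Pericytes and smooth muscle cells, together called mural cells, carry the receptor Pdgfrb and contractile proteins such as Acta2, and fibroblasts carry Pdgfra and the proteoglycans Dcn and Lum. Macrophages are known mainly for taking up and digesting matrix.

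Levels are given as CPM, the gene's count divided by the library's total and multiplied by 1000000, and values are listed in the order of the replicate numbers. Library totals ran from 6891142 to 18592381 counts, so that 3 counts, the limit that a count of 0 allows, equalled 0.161 to 0.435 CPM, for counting error only. Of the 36 genes, 4 reached 1 CPM in all 21 libraries: Col4a1, Col14a1, Igfbp7 and Gsn. The other 32 were below 1 CPM in at least 1 library, and Tnc had 0 counts in 12 libraries, Eln in 11 and Rgs5 in 9. The 12 macrophage markers found in the table summed to 5035 to 25586 CPM, and none was at 0 in a whole group. Some libraries stood apart. KRM RAS replicates 2 and 3 held all 36 genes at 1 CPM or more, against 20 in KRM RAS replicate 1 and 15 to 18 in KRM Sham. CD11clo RAS replicate 1 held 6 genes at 1 CPM or more and 21 at 0 counts, where the other CD11clo RAS libraries held 33 to 35 at 1 CPM or more. CD11chi Sham replicate 3 held Igfbp7 at 1049 CPM and the summed proximal tubule markers at 17543 CPM, against 310.1 and 332 CPM of those markers in the other CD11chi Sham libraries.

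**Figure D1:**
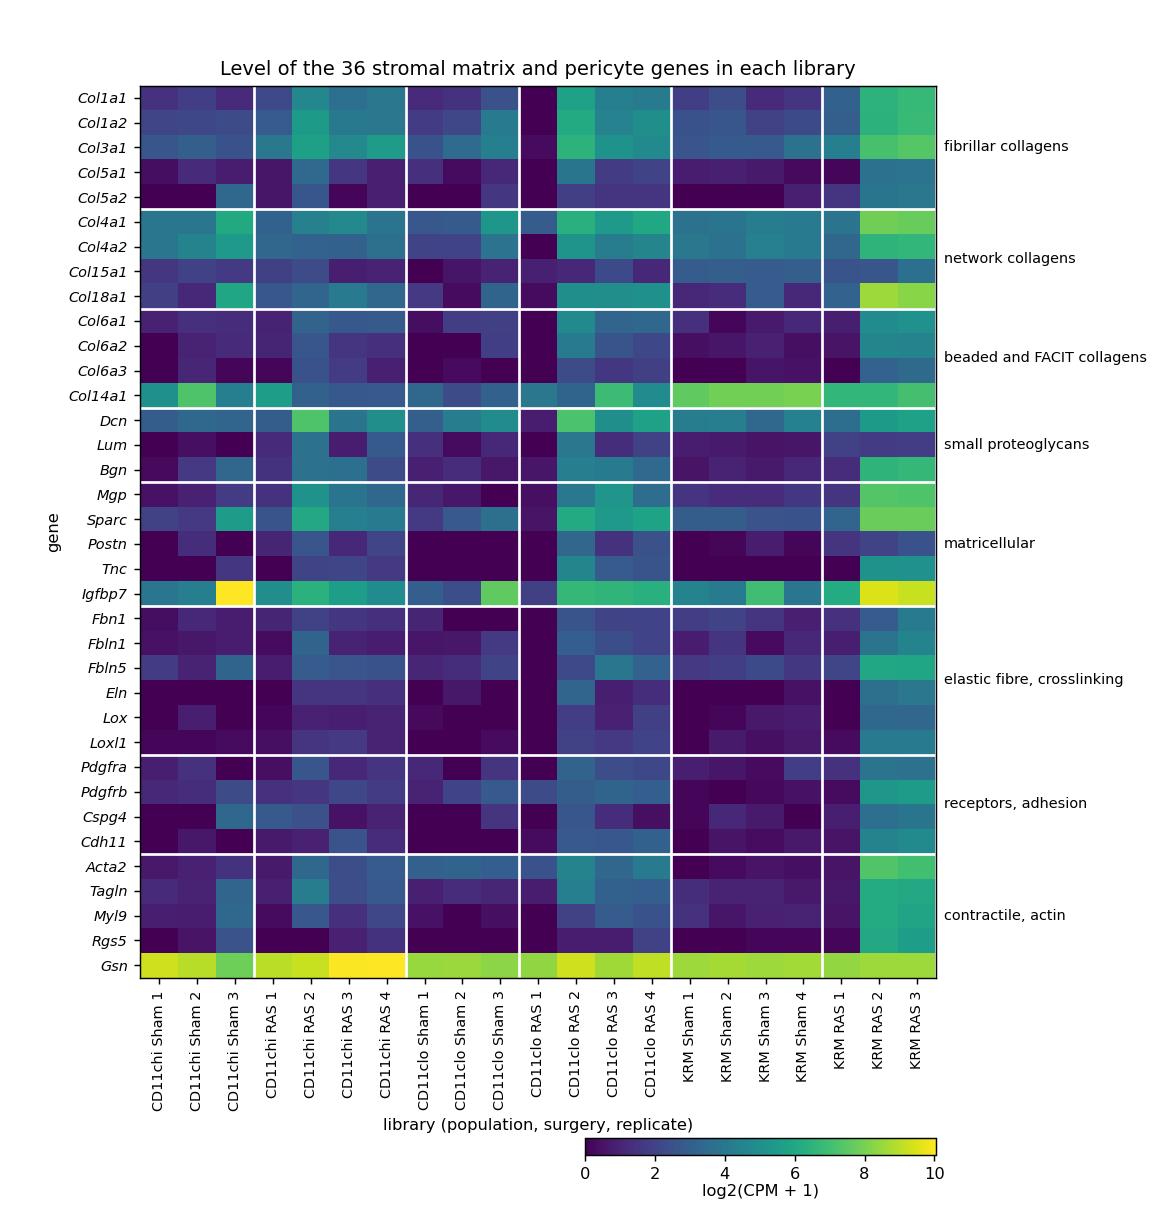
Level of each of the 36 genes (rows, grouped by role) in each of the 21 libraries (columns) as log2(CPM + 1), from dark (0) to bright. KRM RAS replicates 2 and 3 are bright over nearly all rows, KRM RAS replicate 1 resembles KRM Sham, and the rows of Gsn and Col14a1 do not follow the others.

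Summed over the 36 genes without Gsn, KRM Sham libraries held 301, 348, 452 and 376 CPM. The KRM RAS libraries held 284, 3074 and 2925 CPM. Replicate 1 lay below every Sham library and replicates 2 and 3 lay several times above all of them. The place of replicate 1 rested on Col14a1: without Gsn and Col14a1 the Sham libraries held 109, 109, 216 and 118 CPM and the RAS libraries 184, 2974 and 2790 CPM, so that replicate 1 lay above 3 of the 4 Sham libraries. In these bulk samples, more cells of a type and more RNA per cell cannot be told apart. For the 34 genes with more than 3 counts over the KRM Sham libraries, the level over the KRM Sham mean had a median of 1.0 in RAS replicate 1, with 17 genes below 1 and none above 10-fold. In replicate 2 the median was 25.0 and in replicate 3 it was 27.4, with 27 genes above 10-fold in each. Replicates 2 and 3 also resembled each other gene by gene: over the 30 genes at 10 CPM or more in both, replicate 3 over replicate 2 ran from 0.719 (Rgs5) to 1.63 (Fbln1), with a median of 1.04.

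The 2 deposited tables do not tell the same of KRM RAS replicate 1. Between the counts and the log2 table, the columns of equal name correlated at 0.858 to 0.937 over shared genes in 20 libraries (as deviations from each gene's mean), and at 0.102 in KRM RAS replicate 1. In the log2 table that column held Col1a1 at 4.95, beside 4.53 and 4.88 in replicates 2 and 3 and 0.40 to 1.15 in KRM Sham, all on the log2(TPM + 1) scale. It was not alike throughout: Dcn stood at 7.42, 5.26 and 5.63 in RAS replicates 1, 2 and 3, Lum at 4.86, 1.00 and 1.08, Acta2 at 3.31, 7.26 and 7.02 and Myl9 at 0.59, 6.78 and 6.54. The column of replicate 1 was thus high in the fibroblast genes and lower than the others in the contractile genes. Which of the 2 columns belongs to the library cannot be told apart here, and the results below use the counts.

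**Figure D2:**
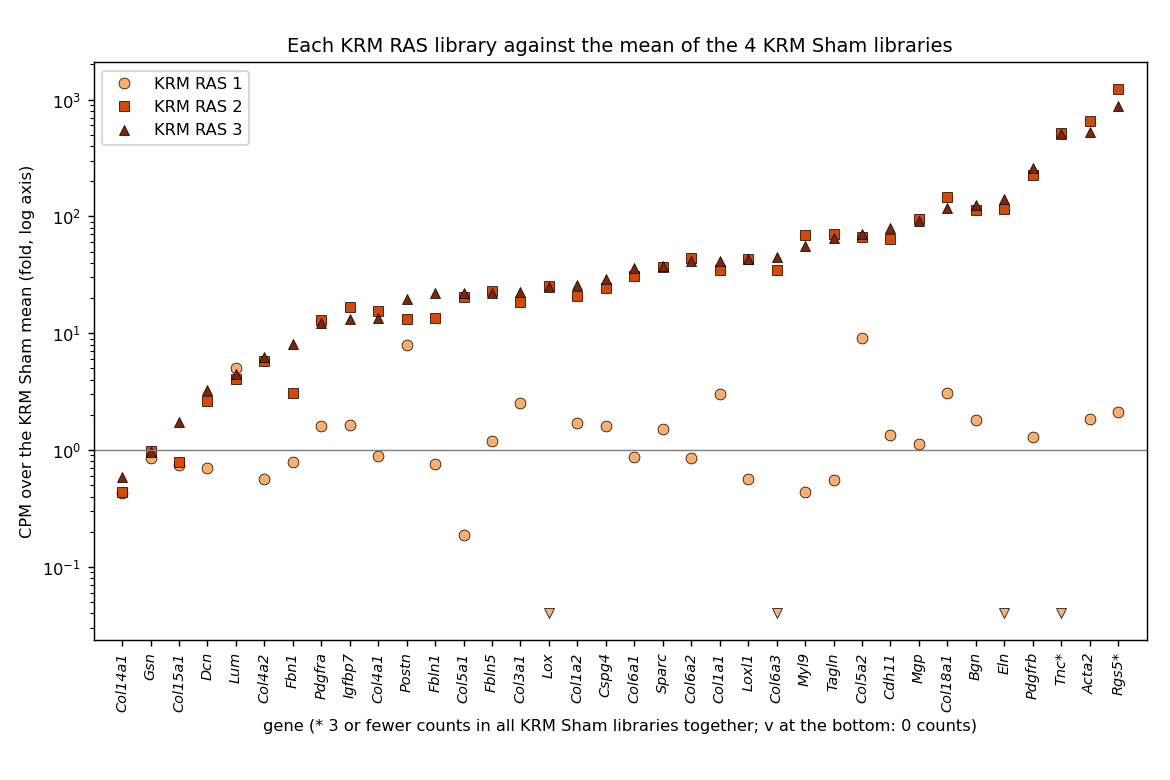
CPM of each gene in each of the 3 KRM RAS libraries divided by the mean of the 4 KRM Sham libraries (log axis; the line marks 1, asterisks mark Tnc and Rgs5 with 3 or fewer counts in KRM Sham, and triangles at the bottom mark 0 counts). Replicates 2 and 3 lie close together and above 10-fold for 27 of 34 genes, while replicate 1 scatters around 1 with a median of 1.0.

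RAS was compared with Sham within each population by edgeR's quasi-likelihood test, with a gene called at an adjusted p under 0.05 over all genes tested. In KRM, 25 of the 36 genes passed the filter on low counts, and 15 of them were called, beside 9.7% of the 12852 genes tested. Of these, 14 were higher in RAS, where 7.77% of all genes were called higher, and 1 was lower, where 1.94% were called lower. Of the 25 genes, 10 reached the filter's level of 1.04 CPM in fewer than 3 Sham libraries and so passed only with the RAS libraries counted in, which favours genes that were higher there: Col5a2, Col6a1, Lum, Bgn, Postn, Fbln1, Pdgfra, Cspg4, Tagln and Myl9. Of the 14 called higher, 6 were of that kind (Col5a2, Lum, Bgn, Postn, Tagln and Myl9), and 8 of the 15 that also passed in Sham were called higher. The median log2 fold change was 3.82 over the 25 genes and 0.02 over all genes, and since the filter shaped the first it is no support for a change of the members as a whole. The 11 genes that did not pass the filter (Col5a1, Col6a2, Col6a3, Tnc, Eln, Lox, Loxl1, Pdgfrb, Cdh11, Acta2 and Rgs5) were each at or under 0.914 CPM in every KRM Sham library. In CD11chi Mϕ 0 of 30 genes tested were called and in CD11clo Mϕ 0 of 33, as for all genes (0.0% in each; 1247 and 1102 genes had an unadjusted p under 0.05). Among the members the unadjusted p was under 0.05 for 11 and 10 genes. DESeq2 called 5 and 4 members, beside 189 of 12739 and 107 of 12301 genes. There 17 of the 30 and 21 of the 33 genes passed only with RAS libraries counted in, so the medians are given as values and not as support: the median log2 fold change over the genes tested was 1.45 in CD11chi Mϕ and 2.28 in CD11clo Mϕ, beside -0.09 and -0.02 over all genes.

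The KRM calls changed with single libraries. Without KRM RAS replicate 1, 34 of 36 genes were called, beside 50.2% of all genes, and Gsn and Col15a1 were those that were not. All 36 were tested there, including the 11 that had not passed the filter with every library and did so only through RAS replicates 2 and 3, so this count too was shaped by the filter. Without KRM RAS replicate 2, 0 of 25 were called (0.216% of all genes). The unadjusted p was then under 0.05 for 21 of them, beside 2681 of 12990 genes, with a median log2 fold change of 3.48. Without replicate 3 only Col14a1 was called (0.246%). There 20 members had an unadjusted p under 0.05, beside 2667 of 13012 genes, with a median log2 fold change of 3.32. Leaving out KRM Sham replicate 1, 2 or 4 also took the count to 0, where 0.204%, 0.259% and 0.338% of all genes were called. The median log2 fold change over the members tested was then 3.46, 3.80 and 3.78, beside 0.02, 0.01 and 0.01 over all genes. Of the members 19, 21 and 21 had an unadjusted p under 0.05, beside 3758 of 12771, 3163 of 12728 and 3343 of 12727 genes. The filter shaped the members' values here too. In ranges, all RAS libraries lay above all Sham libraries for 9 of the 25 members tested in KRM (17.1% of the genes tested there), 4 of the 30 in CD11chi Mϕ (4.47%) and 1 of the 33 in CD11clo Mϕ (3.46%). Col5a2, Lum, Bgn and Postn in KRM, Lum in CD11chi Mϕ and Cdh11 in CD11clo Mϕ passed the filter only with RAS libraries counted in. The filter thus shaped these counts too, and they are no support for a change of the members as a whole. Among members too low to be tested, Acta2 and Rgs5 in KRM and Loxl1 and Cdh11 in CD11chi Mϕ were also higher in every RAS library, Rgs5 with only 1 count in RAS replicate 1.

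Fibrillar collagens form the rope-like fibres of connective tissue: type I from Col1a1 and Col1a2, type III from Col3a1, and type V, which seeds the fibres, from Col5a1 and Col5a2. In KRM, Col1a1 (chromosome 11, 94936224 to 94953042, gene bounds in GENCODE, GRCm38.p6, as for all gene bounds here) stood at 2.63, 4.18, 1.34 and 1.88 CPM in Sham and 7.59, 87.9 and 105 CPM in RAS libraries. Every RAS library lay above every Sham library, replicate 1 by the least. The log2 fold change was 4.71 ± 0.85 (SE), adjusted p = 0.0268 with edgeR. Its partner Col1a2 (chromosome 6, 4504814 to 4541544) went from 4.81, 5.36, 2.80 and 3.76 to 7.14, 87.7 and 109 CPM, with 3.98 ± 0.80 (SE), adjusted p = 0.0305. Col3a1 (chromosome 1, 45311538 to 45349706) had 5.26, 6.12, 6.19 and 12.4 CPM in Sham and 19.1, 139.6 and 169.6 CPM in RAS, with 3.82 ± 0.70 (SE), adjusted p = 0.0269. These 3 genes did not overlap between KRM RAS and KRM Sham, and leaving out RAS replicate 2 raised each adjusted p above 0.05 (adjusted p = 0.0843, 0.0991 and 0.0853 with edgeR), while the log2 fold changes were then 4.46 ± 0.93 (SE), 3.75 ± 0.88 (SE) and 3.61 ± 0.77 (SE). Col5a2 (chromosome 1, 45374321 to 45503282) had 0 counts in 3 KRM Sham libraries and 0.835 CPM in the other, against 1.90, 13.9 and 14.6 CPM in RAS (5.60 ± 1.34 (SE), adjusted p = 0.0425). Col5a1 was under 1 CPM in KRM Sham and in RAS replicate 1, and at 12.3 and 13.2 CPM in RAS replicates 2 and 3.

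In CD11chi Mϕ the same 3 collagens of types I and III also lay higher in every RAS library than in any Sham library. The difference of the log2 fold changes, KRM minus CD11chi Mϕ, was 1.67 ± 1.09 (SE), adjusted p = 0.41 for Col1a1, 1.35 ± 1.05 (SE), adjusted p = 0.505 for Col1a2 and 1.10 ± 0.87 (SE), adjusted p = 0.511 for Col3a1 (edgeR), so it was not past the threshold. Col1a1 was at 1.73, 2.62 and 1.31 CPM in Sham and 3.70, 24.1, 11.6 and 15.2 CPM in RAS, and Col1a2 at 3.26, 3.53 and 3.94 CPM in Sham and 6.44, 43.5, 15.6 and 14.7 CPM in RAS. Col3a1 stood at 5.40, 7.29 and 4.77 CPM in Sham and 15.1, 51.8, 25.8 and 44.4 CPM in RAS, so that the groups did not overlap. None passed the adjusted threshold there (2.66 ± 0.52 (SE), adjusted p = 0.508 for Col3a1 with edgeR). In CD11clo Mϕ the RAS libraries spread from the lowest to the highest of the population: Col1a1 was at 1.34, 1.75 and 4.55 CPM in Sham and 0, 53, 19 and 17.1 CPM in RAS. Col1a2 had 2.47, 3.38 and 17.2 CPM in Sham and 0, 70.3, 20.6 and 31.1 CPM in RAS, and Col3a1 had 4.84, 10.3 and 19.2 CPM in Sham and 0.214, 88.8, 35 and 26.7 CPM in RAS. RAS replicate 1 held 0 counts of both type I genes, and replicate 2 held the most. The CPM of Col1a2 over that of Col1a1, which make 1 protein together, was 0.941 to 1.03 in the KRM RAS libraries and 1.28 to 2.08 in KRM Sham (a ratio not corrected for gene length, read between libraries only).

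Network-forming and basement membrane collagens came next. Col4a1 and Col4a2 encode the chains of the main type IV network, and Col15a1 and Col18a1 the collagens of the zone where basement membrane meets the interstitium. Col4a1 (chromosome 8, 11198423 to 11312826) was at 12.6, 13.4, 17.7 and 16.8 CPM in KRM Sham and at 13.4, 236 and 206 CPM in KRM RAS (3.27 ± 0.78 (SE), adjusted p = 0.0419 with edgeR). RAS replicate 1 lay within the Sham range. Col4a2 (chromosome 8, 11312805 to 11449287) ran from 14.6, 12.8, 19.9 and 16.8 CPM in Sham to 9.04, 92.1 and 101 CPM in RAS, with replicate 1 below every Sham library, and did not pass (2.02 ± 0.66 (SE), adjusted p = 0.0831). In CD11chi Mϕ the pair did not follow types I and III. Col4a1 was at 14.4, 14.4 and 68.5 CPM in Sham and 7.71, 19.7, 25.2 and 13.5 CPM in RAS, and Col4a2 at 14.3, 21.8 and 41.5 CPM in Sham and 8.87, 7.98, 7.61 and 12 CPM in RAS. For Col4a2 all RAS libraries lay below all Sham libraries, with -1.49 ± 0.45 (SE), adjusted p = 0.508. In CD11clo Mϕ, Col4a1 stood at 5.67, 6.18 and 38.8 CPM in Sham and 6.52, 81, 41.6 and 64.9 CPM in RAS, and Col4a2 at 3.19, 3.03 and 13.1 CPM in Sham and 0, 35.7, 18.3 and 22.6 CPM in RAS. CD11clo RAS replicate 1 thus kept Col4a1 at a Sham-like level with 0 counts of Col4a2.

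Col4a1 and Col4a2 lie head to head, and their promoter sequences are shown because the data bear on how far the pair moved together. The RefSeq start sites (GRCm38.p6) are at 11312826 on the minus strand and 11312805 on the plus strand, so the annotated 5′ ends share 22 bases, over which reads of the 2 genes could not be told apart without strand. Each window holds 250 bases before the start site and 50 from it on, and the 2 windows share 78 bases; the capitals mark CCAAT on either strand.
Col4a1, chr8:11312777-11313076, minus strand: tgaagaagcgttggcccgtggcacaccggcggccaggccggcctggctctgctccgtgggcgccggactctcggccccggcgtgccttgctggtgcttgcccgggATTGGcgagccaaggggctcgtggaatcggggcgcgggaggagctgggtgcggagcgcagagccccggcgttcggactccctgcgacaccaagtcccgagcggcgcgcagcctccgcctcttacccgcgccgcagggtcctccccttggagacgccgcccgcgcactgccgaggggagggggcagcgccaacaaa
Col4a2, chr8:11312555-11312854, plus strand: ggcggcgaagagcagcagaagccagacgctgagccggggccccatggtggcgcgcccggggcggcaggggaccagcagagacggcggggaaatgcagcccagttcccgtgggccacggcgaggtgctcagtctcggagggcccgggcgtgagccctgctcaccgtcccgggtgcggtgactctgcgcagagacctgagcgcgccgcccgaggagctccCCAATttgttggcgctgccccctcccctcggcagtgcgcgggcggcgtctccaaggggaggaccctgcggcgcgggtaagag
CCAAT or its reverse complement lies 145 bases before the Col4a1 start and 32 bases before that of Col4a2, and 37.4% of all 32851 promoter windows hold at least 1. Of 24 members with a promoter in the table, 8 hold it (33.3%). The ratio of the CPM of Col4a1 to that of Col4a2 was 0.859 to 1.05 in KRM Sham, 1.48 in KRM RAS replicate 1, and 2.56 and 2.05 in KRM RAS replicates 2 and 3.

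Col18a1 (chromosome 10, 77052178 to 77166548), whose fragment endostatin restrains vessel growth, had 1.26, 1.39, 6.56 and 1.15 CPM in KRM Sham and 7.92, 379 and 308 CPM in KRM RAS. RAS replicates 2 and 3 were 146 and 119 times the Sham mean and replicate 1 was 3.06 times it, with 6.33 ± 1.25 (SE), adjusted p = 0.0297 by edgeR. In CD11chi Mϕ it was at 2.75, 1.25 and 58.6 CPM in Sham and 5.60, 8.71, 16.6 and 9.04 CPM in RAS. In CD11clo Mϕ it was at 2.16, 0.233 and 8.54 CPM in Sham and 0.214, 31.2, 29.8 and 32.2 CPM in RAS. Both Sham groups were led by replicate 3, the libraries that were also highest in proximal tubule markers, and the part of those markers in this was not tested. Col15a1 (chromosome 4, 47208161 to 47313167) behaved otherwise: it was at 6.52, 7.19, 6.29 and 7.31 CPM in KRM Sham and 5.13, 5.42 and 11.8 CPM in KRM RAS, with overlapping groups and 0.07 ± 0.35 (SE), adjusted p = 0.895. In CD11chi Mϕ it had 2.04, 2.85 and 2.27 CPM in Sham and 2.75, 4.06, 0.79 and 0.925 CPM in RAS, and in CD11clo Mϕ 0, 0.467 and 1.02 CPM in Sham and 0.855, 1.15, 3.73 and 1.25 CPM in RAS.

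Beaded and fibril-associated collagens were split. Type VI collagen (Col6a1, Col6a2 and Col6a3) forms beaded filaments around cells, and Col14a1 sits on the surface of fibrils. Col14a1 (chromosome 15, 55307750 to 55520803) was the one member called lower in KRM RAS. It stood at 192, 239, 236 and 258 CPM in KRM Sham, 231 ± 27.7 CPM (SD, n = 4) as the mean, and at 99.97, 100.5 and 135 CPM in KRM RAS, 112 ± 20.3 CPM (SD, n = 3). All 3 RAS libraries lay below all 4 Sham libraries, replicate 1 with the others, and the log2 fold change was -1.11 ± 0.17 (SE), adjusted p = 0.0184 with edgeR. It was -1.05 ± 0.19 (SE), adjusted p = 0.0688 without RAS replicate 2, -1.31 ± 0.16 (SE), adjusted p = 0.0445 without replicate 3 and -1.33 ± 0.19 (SE), adjusted p = 0.0268 with only RAS replicate 1, a setting added after the data were seen in which that library is assumed to vary like the Sham libraries. The call was lost without RAS replicate 2, without KRM Sham replicate 1, 2 or 4 (adjusted p = 0.0661, 0.0757 and 0.0604), with the replicate block (adjusted p = 0.0927) and in 1 fit over all 6 groups (log2 fold change -1.21, adjusted p = 0.369, all with edgeR). In CD11chi Mϕ, Col14a1 had 31.9, 156 and 19.1 CPM in Sham and 47.8, 7.69, 5.73 and 5.96 CPM in RAS, with 1 high library in each group. In CD11clo Mϕ it had 9.38, 4.08 and 7.74 CPM in Sham and 15, 8.31, 117 and 27.5 CPM in RAS, where replicate 3 was the highest. Type VI genes were near the limit in KRM Sham: Col6a1 was at 1.60, 0.107, 0.645 and 1.25 CPM there and at 0.781, 27.7 and 32.9 CPM in RAS (4.45 ± 1.15 (SE), adjusted p = 0.0506). Col6a2 and Col6a3 did not pass the filter in KRM, with at most 0.914 and 0.484 CPM in Sham and 23.3 and 7.83 CPM in RAS replicate 2.

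Small leucine-rich proteoglycans bind collagen fibrils and set their spacing. Dcn (decorin, chromosome 10, 97479609 to 97518143) was found in every library, at 17.7, 18.5, 9.63 and 20.1 CPM in KRM Sham and 11.5, 43 and 53.4 CPM in KRM RAS. Unlike most members it did not reach its highest levels in KRM RAS and was not called (1.07 ± 0.50 (SE), adjusted p = 0.174 with edgeR). The highest values were in RAS replicate 2 of both CD11c populations, with 6.83, 9.45 and 8.59 CPM in CD11chi Sham and 6.76, 153, 13.6 and 30.1 CPM in CD11chi RAS. In CD11clo Mϕ, Dcn was at 7.21, 17.4 and 27.8 CPM in Sham and 0.748, 147, 31 and 53.5 CPM in RAS. Lum (lumican, chromosome 10, 97565128 to 97572703) had 0.686, 0.644, 0.43 and 0.522 CPM in KRM Sham and 2.90, 2.31 and 2.57 CPM in KRM RAS, with 2.11 ± 0.39 (SE), adjusted p = 0.027. It was the gene whose 3 KRM RAS libraries lay closest together, replicate 1 included, among those called higher. Its highest values, too, were in CD11chi RAS (1.27, 12.5, 0.692 and 6.27 CPM) and CD11clo RAS (0, 14.9, 1.51 and 2.83 CPM), against 0, 0.342 and 0 CPM in CD11chi Sham and 1.55, 0.233 and 1.25 CPM in CD11clo Sham. Bgn (biglycan, chromosome X, 73483602 to 73495933), which can also act as a danger signal on Toll-like receptors, went from 0.458, 0.966, 0.645 and 1.15 CPM in KRM Sham to 1.45, 91.3 and 101 CPM in KRM RAS (6.29 ± 1.21 (SE), adjusted p = 0.0286). RAS replicate 1 was just above the Sham range and the others 113 and 126 times the Sham mean. In CD11chi Mϕ, Bgn had 0.204, 2.16 and 8.95 CPM in Sham and 1.80, 12.8, 11.9 and 4.01 CPM in RAS, and in CD11clo Mϕ 0.825, 1.40 and 0.569 CPM in Sham and 0.534, 18.5, 17.3 and 9.85 CPM in RAS.

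Matricellular proteins act on cells without building fibres. Mgp, an inhibitor of calcification (chromosome 6, 136872435 to 136875823), had 1.83, 1.39, 1.45 and 2.09 CPM in KRM Sham and 1.90, 162 and 155 CPM in KRM RAS, where replicate 1 lay within the Sham range, with 5.93 ± 1.20 (SE), adjusted p = 0.0308 by edgeR. Its levels were 0.408, 0.911 and 2.39 CPM in CD11chi Sham and 1.69, 34, 13.6 and 9.45 CPM in CD11chi RAS, and 1.13, 0.583 and 0 CPM in CD11clo Sham and 0.321, 15.3, 36.6 and 11 CPM in CD11clo RAS. Sparc, a collagen-binding protein of remodelling tissue (chromosome 11, 55394500 to 55423183), stood at 6.87, 6.76, 5.00 and 4.80 CPM in KRM Sham and 8.81, 214 and 220.2 CPM in KRM RAS. No RAS library overlapped Sham, and the log2 fold change was 4.61 ± 0.92 (SE), adjusted p = 0.0301. In CD11chi Mϕ, Sparc had 2.96, 2.16 and 45 CPM in Sham and 5.18, 65.7, 19.5 and 16.9 CPM in RAS, and in CD11clo Mϕ 2.27, 6.06 and 12.1 CPM in Sham and 0.427, 70.5, 42.4 and 55.9 CPM in RAS. Among RAS libraries, replicate 1 of each population had the lowest Sparc. Postn (periostin, chromosome 3, 54361109 to 54391037), a gene of injured stroma, was at 0, 0.107, 0.753 and 0.104 CPM in KRM Sham and 1.90, 3.21 and 4.73 CPM in KRM RAS (3.45 ± 0.88 (SE), adjusted p = 0.0486). It was at 0 in all CD11clo Sham libraries and at 0, 8.88, 1.71 and 4.64 CPM in CD11clo RAS, and at 0, 1.48 and 0 CPM in CD11chi Sham and 1.06, 5.22, 1.19 and 3.29 CPM in CD11chi RAS. Postn was thus low in Sham and, unlike Mgp and Sparc, highest in CD11clo RAS replicate 2. Tnc (tenascin C), also induced in injury, was at 0 counts in all KRM Sham libraries and in RAS replicate 1, and at 33.3 and 32.9 CPM in replicates 2 and 3. Against a floor of 3 counts over the KRM Sham group (0.0649 CPM), these were at least 514-fold and at least 508-fold higher.

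Igfbp7 (chromosome 5, 77349240 to 77408041), a secreted protein of endothelium, pericytes and injured tubule, ran from 2.78 to 1049 CPM over the 21 libraries. It was at 21.6, 16.2, 124 and 14.4 CPM in KRM Sham and 72.1, 739.6 and 583 CPM in KRM RAS (3.36 ± 1.00 (SE), adjusted p = 0.0671 with edgeR, not called). In CD11chi Mϕ it was at 14.6, 18.6 and 1049 CPM in Sham and 30.4, 85.3, 46.7 and 28.2 CPM in RAS, and in CD11clo Mϕ at 7.01, 4.32 and 191 CPM in Sham and 2.78, 103, 94.6 and 82.2 CPM in RAS. Replicate 3 was the highest Sham library in each population. The same libraries led in the summed proximal tubule markers, with 17543, 5913 and 2771 CPM in replicate 3 of CD11chi, CD11clo and KRM Sham against at most 484 CPM in the other Sham libraries (sums of 8 genes). The part of tubule RNA in the Igfbp7 level was not tested.

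Elastic fibre and crosslinking genes were at or under 3.82 CPM in every KRM Sham library. Fbn1 forms the microfibril scaffold, Eln the elastic core, Fbln1 and Fbln5 link them, and Lox and Loxl1 crosslink collagen and elastin. Fbln5 (chromosome 12, 101746565 to 101819055) was the one called in KRM, at 2.17, 2.68, 3.82 and 2.09 CPM in Sham and 3.24, 62.5 and 59.1 CPM in RAS (3.88 ± 0.84 (SE), adjusted p = 0.0355 with edgeR). Fbln1 had 0.686, 1.93, 0.215 and 1.25 CPM in KRM Sham and 0.781, 13.8 and 22.4 CPM in KRM RAS (3.58 ± 1.05 (SE), adjusted p = 0.0663), and was not called. Fbn1 had 2.52, 3.22, 1.88 and 0.835 CPM in KRM Sham and 1.67, 6.53 and 17 CPM in KRM RAS (1.94 ± 0.76 (SE), adjusted p = 0.119), and was not called. In these 3 genes RAS replicate 1 lay within the Sham range and the other 2 RAS libraries above it. Fbln5 was at 2.45, 1.02 and 8.47 CPM in CD11chi Sham and 0.74, 6.53, 5.34 and 4.73 CPM in CD11chi RAS, and at 1.13, 1.52 and 3.19 CPM in CD11clo Sham and 0, 3.69, 14.3 and 7.93 CPM in CD11clo RAS. Eln had 0, 12 and 14.6 CPM in KRM RAS, Lox 0, 9.14 and 8.95 CPM and Loxl1 0.223, 17.1 and 17.3 CPM, against at most 0.418, 0.731 and 0.644 CPM in KRM Sham. None of the 10 Sham libraries of the 3 populations reached 1 CPM of Eln, Lox or Loxl1.

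The receptors and the cadherin that mark stromal cells had similar patterns at low levels. Pdgfra, the receptor of fibroblasts, was at 0.801, 0.536, 0.215 and 2.61 CPM in KRM Sham and 1.67, 13.7 and 12.8 CPM in RAS (3.13 ± 0.94 (SE), adjusted p = 0.0687 with edgeR). Pdgfrb, the receptor of pericytes, was under 0.5 CPM in KRM Sham and at 0.223, 38.9 and 45.3 CPM in KRM RAS. It lay above the KRM Sham range in every CD11clo library, with 0.928, 3.03 and 5.92 CPM in Sham and 4.06, 6.81, 8.36 and 6.91 CPM in RAS, and in every CD11chi library, with 1.22, 1.48 and 4.06 CPM in Sham and 1.69, 2.03, 3.36 and 2.36 CPM in RAS. Cspg4 (NG2), a pericyte proteoglycan, had 0.114, 1.18, 0.645 and 0 CPM in KRM Sham and 0.781, 11.8 and 14 CPM in RAS (4.10 ± 1.16 (SE), adjusted p = 0.0614). Cdh11, an adhesion molecule of mesenchymal cells, was at 0 in the 3 CD11clo Sham libraries and at 0.214, 6.00, 5.64 and 7.70 CPM in CD11clo RAS. In KRM RAS it was at 0.446, 21.3 and 26.1 CPM, and in CD11chi RAS at 0.634, 0.871, 4.94 and 1.44 CPM.

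Contractile genes other than Gsn were low in KRM Sham and high in KRM RAS replicates 2 and 3. Acta2 is smooth muscle actin, Tagln and Myl9 bind or move actin in the same cells, and Rgs5 damps G protein signalling in pericytes. Acta2 (chromosome 19, 34241090 to 34255590) was at 0, 0.215, 0.43 and 0.313 CPM in KRM Sham and 0.446, 157 and 126 CPM in KRM RAS. Replicates 2 and 3 were 656 and 526 times the KRM Sham mean, and replicate 1 was 1.86 times it, from 4 counts. In CD11chi Mϕ, Acta2 had 0.612, 0.911 and 1.79 CPM in Sham and 0.634, 9.14, 4.35 and 6.37 CPM in RAS. In CD11clo Mϕ it stood at 7.52, 8.51 and 6.94 CPM in Sham, 7.66 ± 0.794 CPM (SD, n = 3), and at 4.81, 21.8, 8.96 and 16.3 CPM in RAS, and no CD11clo library was without it. Tagln (chromosome 9, 45929619 to 45936058) went from 1.49, 0.966, 0.968 and 0.626 CPM in KRM Sham to 0.558, 71.3 and 66 CPM in KRM RAS (5.44 ± 1.23 (SE), adjusted p = 0.0376 with edgeR). Its CD11chi levels were 1.32, 1.02 and 8.59 CPM in Sham and 0.845, 18, 4.15 and 5.96 CPM in RAS, and its CD11clo levels 0.825, 1.40 and 1.14 CPM in Sham and 0.748, 19, 7.65 and 7.02 CPM in RAS. Myl9 (chromosome 2, 156775420 to 156781658) had 1.72, 0.536, 0.914 and 0.94 CPM in KRM Sham and 0.446, 71.7 and 57 CPM in KRM RAS (5.33 ± 1.26 (SE), adjusted p = 0.0414). In both genes RAS replicate 1 lay at or below the lowest Sham library, and with that library as the only RAS sample the fitted change turned negative. Myl9 was at 0.815, 0.683 and 9.43 CPM in CD11chi Sham and 0.211, 5.66, 1.58 and 3.39 CPM in CD11chi RAS, and at 0.412, 0 and 0.342 CPM in CD11clo Sham and 0, 3.00, 6.55 and 4.76 CPM in CD11clo RAS. Rgs5 had 3 counts in all KRM Sham libraries together and stood at 0.112, 65.5 and 47 CPM in KRM RAS, but it was at 0 counts in the 3 CD11clo Sham libraries and reached at most 2.94 CPM in CD11clo RAS and 1.75 CPM in CD11chi RAS. Its highest level outside KRM RAS replicates 2 and 3 was in CD11chi Sham replicate 3, at 4.89 CPM.

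Promoters of the contractile genes are shown because these genes moved together in KRM RAS replicates 2 and 3. The CArG box, which serum response factor binds in smooth muscle genes, was searched on both strands in its strict form, and TATAA likewise. The windows are built as above (RefSeq, GRCm38.p6), and capitals mark TATAA in Acta2 and the CArG box in Myl9. The RefSeq start site lies 217 bases inside the GENCODE gene bounds given above for Acta2 and 44 bases inside those for Myl9. The windows thus do not begin at the outermost annotated end.
Acta2, chr19:34255324-34255623, minus strand: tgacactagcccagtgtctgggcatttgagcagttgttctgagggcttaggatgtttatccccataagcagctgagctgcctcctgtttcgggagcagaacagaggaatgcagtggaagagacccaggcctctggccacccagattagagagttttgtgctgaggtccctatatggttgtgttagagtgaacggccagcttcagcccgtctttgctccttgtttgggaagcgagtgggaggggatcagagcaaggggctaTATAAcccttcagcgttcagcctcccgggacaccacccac
Myl9, chr2:156775214-156775513, plus strand: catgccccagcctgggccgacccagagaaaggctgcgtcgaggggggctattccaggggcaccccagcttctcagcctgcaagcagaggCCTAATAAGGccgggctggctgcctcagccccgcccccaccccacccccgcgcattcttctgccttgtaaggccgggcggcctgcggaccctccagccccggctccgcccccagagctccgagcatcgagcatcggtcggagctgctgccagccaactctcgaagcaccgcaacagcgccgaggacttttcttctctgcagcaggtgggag
Myl9 holds 1 strict CArG box, starting 161 bases before the start site, and it is the only 1 of 24 members with a promoter in the table that does; 1.63% of all windows hold one. TATAA starts at base 11 of Acta2, counting the start site as base 1, and 24.9% of all windows and 6 of 24 members hold it. No strict CArG box was found in the Acta2 window, which says only that the strict form is not in these 300 bases. The window does hold ccctatatgg and ccttgtttgg, each of which departs from the strict form at 1 base. Such near matches were not counted in any window.

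Gsn (gelsolin, chromosome 2, 35256380 to 35307892), which cuts and caps actin filaments in many cell types, was at 382, 415, 377 and 399 CPM in KRM Sham, 393 ± 17.5 CPM (SD, n = 4), and 339, 385 and 375 CPM in KRM RAS, 366 ± 24 CPM (SD, n = 3). The difference was within the spread between libraries (-0.17 ± 0.12 (SE), adjusted p = 0.344 with edgeR) and the 3 RAS libraries were 0.863, 0.979 and 0.954 times the Sham mean. Lum, Col14a1 and Col15a1 likewise did not set RAS replicates 2 and 3 far above replicate 1. In CD11chi Mϕ it was at 643, 503 and 228 CPM in Sham and 518, 591, 1007 and 1055 CPM in RAS, with the lowest value in the Sham library richest in tubule markers. In CD11clo Mϕ it was at 357, 367 and 315 CPM in Sham and 332, 642, 395 and 537 CPM in RAS. Gsn made up 11.1% of the members' summed CPM in KRM RAS replicate 2 and 89.9% in CD11clo RAS replicate 1. Per kilobase of exon, it had the highest median level over the 21 libraries (125 CPM per kb), followed by Igfbp7 (38.7), Col14a1 (4.55) and Dcn (3.04).

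The defining markers of fibroblasts (Pdgfra, Dcn, Lum and Col1a1) and of pericytes and smooth muscle (Pdgfrb, Rgs5, Cspg4, Acta2, Myh11 and Des) were then set against each other within each library, as sums not corrected for gene length, so that the ratios compare libraries and not cell numbers. In KRM Sham the fibroblast sum was 21.9, 23.8, 11.6 and 25.2 CPM and the mural sum 0.230, 1.61, 1.45 and 1.04 CPM. In KRM RAS the fibroblast sum was 23.7, 146.9 and 174 CPM and the mural sum 1.56, 344 and 295 CPM, so that the mural sum was 0.066, 2.34 and 1.70 times the fibroblast sum. Only these 2 RAS libraries, CD11chi Sham replicate 3 (2.60) and CD11clo RAS replicate 1 (11.9, with a fibroblast sum of 0.750 CPM) had a ratio above 1 among the 21. The CD11chi RAS libraries had fibroblast sums of 12.0, 195, 27.1 and 53.5 CPM with mural sums of 8.66, 17.0, 10.9 and 15.0 CPM. The CD11clo RAS libraries had fibroblast sums of 0.750, 222, 55.7 and 76.9 CPM with mural sums of 8.87, 36.1, 24.4 and 32.2 CPM. The CD11c libraries with the highest fibroblast sums thus had mural sums of at most 36.1 CPM. Myh11, the smooth muscle myosin, was at 53.7 and 43.6 CPM in KRM RAS replicates 2 and 3, at 0 in replicate 1, and at most 3.85 CPM in any other library. The CPM of Dcn over that of Col1a1 was 0.489 and 0.509 in KRM RAS replicates 2 and 3, 1.52 in replicate 1, and 4.41 to 10.7 in KRM Sham.

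**Figure D3:**
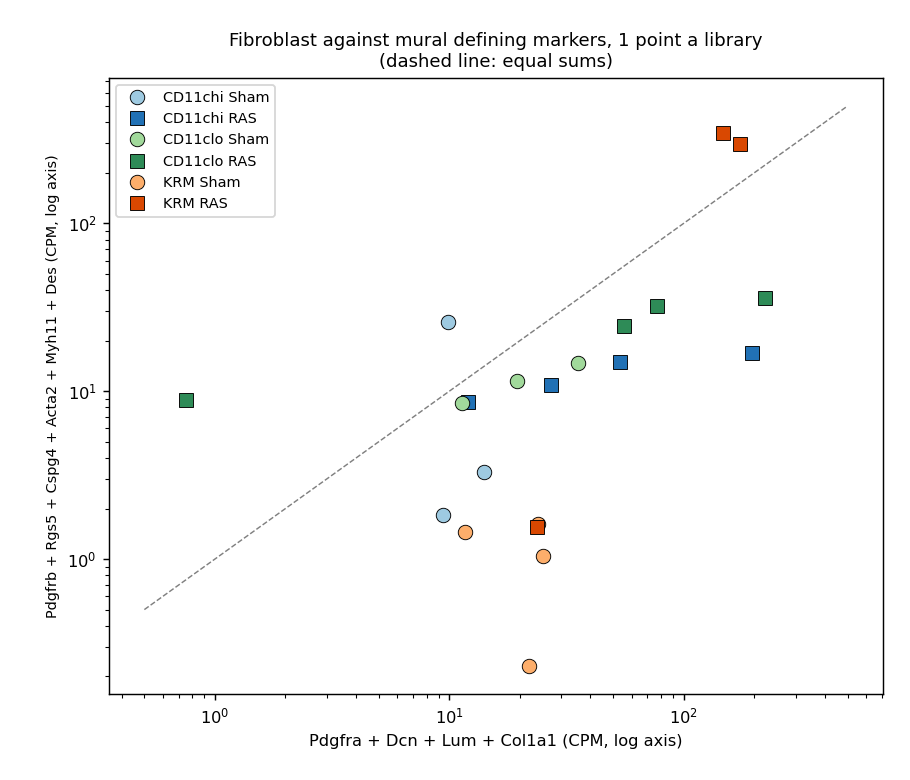
Summed CPM of 4 fibroblast markers (x, log axis) against that of 6 pericyte and smooth muscle markers (y, log axis), 1 point a library, circles for Sham and squares for RAS; the dashed line marks equal sums. KRM RAS replicates 2 and 3 lie at the top right with mural sums of 344 and 295 CPM, KRM RAS replicate 1 lies among KRM Sham at 1.56 CPM, and CD11clo RAS replicate 1 lies at the left with a fibroblast sum of 0.750 CPM.

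Which levels were found where the fibroblast markers were near 0 bears on the macrophages as a source, and CD11clo RAS replicate 1 was the one library of that kind. It had 0 counts of Col1a1, Col1a2, Lum, Pdgfra, Rgs5, Cspg4, Myh11 and Des. In that library 6 members reached 1 CPM: Gsn at 332 CPM, Col14a1 at 15.0, Col4a1 at 6.52, Acta2 at 4.81, Pdgfrb at 4.06 and Igfbp7 at 2.78. Of the 6 mural markers, only Acta2 and Pdgfrb were found there, and Tagln was at 0.748 CPM. The 3 CD11clo Sham libraries held Acta2 with 0 counts of Rgs5 and Myh11, but replicate 3 of them held Cspg4 at 1.82 and Des at 0.114 CPM, and all 3 held Tagln (0.825, 1.40 and 1.14 CPM). Their fibroblast sums were 11.3, 19.4 and 35.5 CPM and their Pdgfrb 0.928, 3.03 and 5.92 CPM, so they were not free of stromal markers. In KRM Sham the mural sum stayed at or under 1.61 CPM, but the fibroblast sum was 11.6 to 25.2 CPM, most of it Dcn (9.63 to 20.1 CPM), so those libraries were not free of fibroblast markers. There 8 members were at 5 CPM or more in all 4 libraries: Col3a1, Col4a1, Col4a2, Col15a1, Col14a1, Dcn, Igfbp7 and Gsn. The CPM of Col14a1 over that of Dcn was 10.8 to 24.5 in KRM Sham, 8.70 in KRM RAS replicate 1, and 2.34 and 2.53 in replicates 2 and 3. In CD11chi and CD11clo RAS replicate 2, where Dcn was highest, that ratio was 0.050 and 0.057. Neither Col14a1 nor Gsn was highest in KRM RAS replicates 2 or 3. In CD11clo RAS, Gsn had the same order over the 4 libraries as the fibroblast sum (332, 642, 395 and 537 CPM of Gsn beside fibroblast sums of 0.750, 222, 55.7 and 76.9 CPM), while in CD11chi RAS the library with the highest fibroblast sum, replicate 2, held 591 CPM of Gsn, below the 1007 and 1055 CPM of replicates 3 and 4. Whether macrophages, cells of a listed type or a cell type not in the marker lists made the members' transcripts was not tested. CD11clo RAS replicate 1 was not free of listed types. Its markers summed to 374 CPM for neutrophil, 73.1 for B and plasma cell, 35.3 for proximal tubule, 21.4 for endothelium and 18.4 for T and NK cell.

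**Figure D4:**
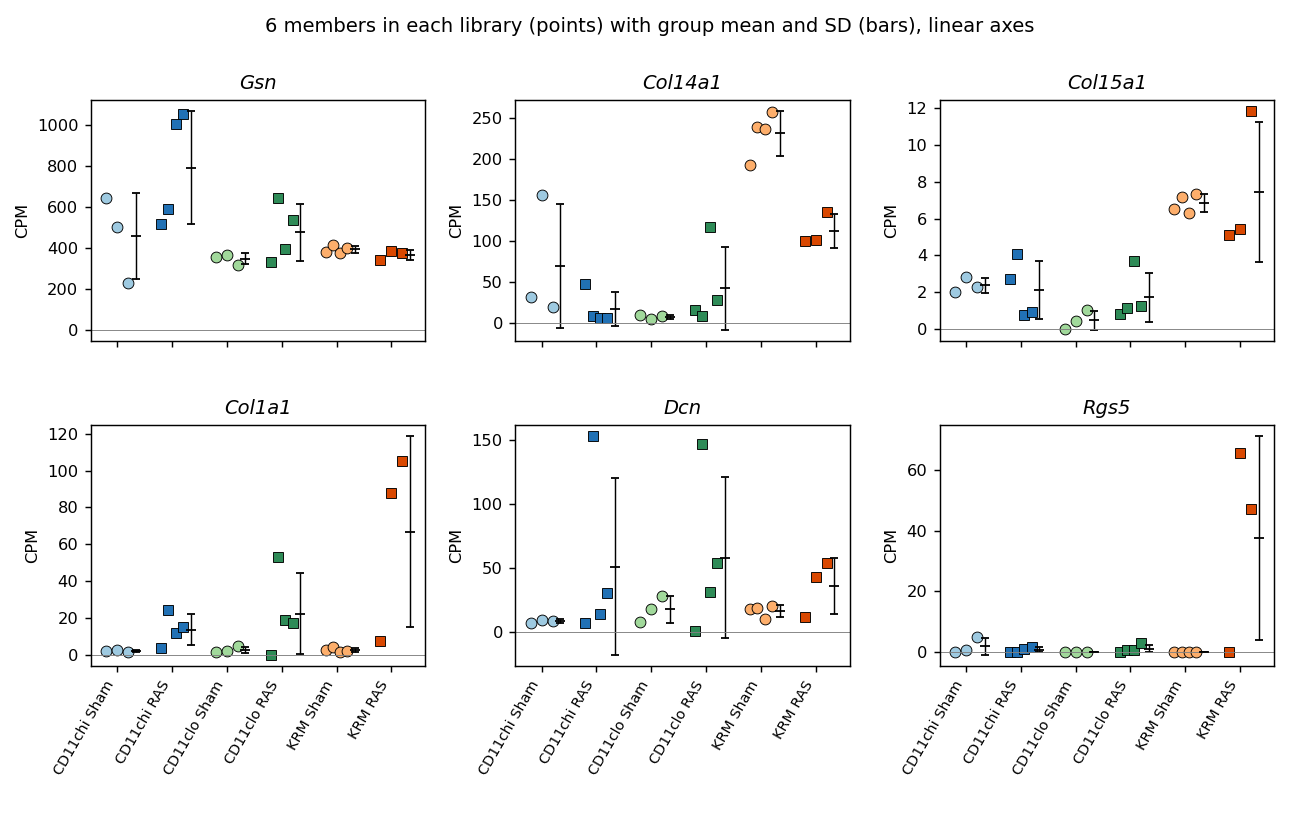
CPM of 6 genes in each library (points, linear axes; circles Sham, squares RAS) with each group's mean and SD (bars; n = 3 or 4). Gsn is at 228 CPM or more in all 21 libraries, Col15a1 is higher in every KRM library than in any other, Col14a1 lies between 99.97 and 258 CPM in KRM with 2 other libraries in that range, Col1a1 and Rgs5 are highest in 2 KRM RAS libraries, and Dcn is highest in 1 RAS library of each CD11c population.

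The 3 populations were compared in Sham kidneys. Libraries of equal replicate number correlated at 0.182 to 0.661 in their deviations from the group means. KRM replicates 1, 2 and 3 matched their own number best in both other populations. Between CD11chi and CD11clo Mϕ only replicate 3 did, as CD11chi replicates 1 and 2 matched CD11clo replicates 2 and 1 best. Between KRM and CD11clo Mϕ, 3 of 20 members tested were called (41.9% of all genes), 2 higher in KRM (19.5%) and 1 lower (22.4%). Col14a1 was higher in KRM (231 ± 27.7 CPM (SD, n = 4)) than in CD11clo Mϕ (7.07 ± 2.71 CPM (SD, n = 3)), with a log2 fold change of 5.00 ± 0.28 (SE), adjusted p = 6.91e-06 by edgeR. Col15a1 was also higher (3.77 ± 0.80 (SE), adjusted p = 0.00642 with edgeR), and Acta2 was lower (-4.88 ± 0.64 (SE), adjusted p = 5.67e-04). Col15a1 was at or under 1.02 CPM in every CD11clo Sham library and Acta2 at or under 0.43 CPM in every KRM Sham library. Each passed the filter only with the group where it was high counted in, which favours such differences. With the pairing as a block, 4 of 20 were called (34.5% of all genes), Col4a2 in addition (1.57 ± 0.39 (SE), adjusted p = 0.0223). Between KRM and CD11chi Mϕ, 1 of 19 was called (5.13%; 1.0% called higher), Col15a1 at 6.83 ± 0.497 CPM (SD, n = 4) against 2.38 ± 0.417 CPM (SD, n = 3) (1.47 ± 0.27 (SE), adjusted p = 0.0265). Under the block none was (0 of 19, beside 0.719% of all genes), Col15a1 having 1.44 ± 0.41 (SE), adjusted p = 0.199. The unadjusted p was then under 0.05 for 4 members and 1960 of 12380 genes. Col14a1 was at 69.1 ± 75.8 CPM (SD, n = 3) in CD11chi Mϕ, where replicate 2 was far above the others, and was not called against KRM (1.78 ± 0.64 (SE), adjusted p = 0.153). Between CD11chi and CD11clo Mϕ, 0 of 20 were called (1.52%). The unadjusted p was under 0.05 for 3 members and 2144 of 12105 genes, and DESeq2 called 3 members and 1213 genes. With the block edgeR called 3 members (4.92%), all higher in CD11chi Mϕ: Col4a2 (2.28 ± 0.32 (SE), adjusted p = 0.0165), Col4a1 (1.20 ± 0.25 (SE), adjusted p = 0.0464) and Igfbp7 (1.98 ± 0.41 (SE), adjusted p = 0.0458). That block assumes a pairing that the best matches of CD11chi replicates 1 and 2 did not bear out. The summed proximal tubule markers were also higher in the CD11chi library of each pair, at 310.1 against 183, 332 against 143 and 17543 against 5913 CPM for replicates 1, 2 and 3, and their part in these calls was not tested. Without the block, the median log2 fold change over the members tested was 0.79, and -0.40 without CD11chi Sham replicate 3, where 2 of 21 were called (5.7% of all genes).

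The change with RAS was also compared between populations, by the difference of the log2 fold changes. Each such comparison uses the KRM libraries again. Against CD11chi Mϕ, 0 of 35 members tested were called, as for all 14137 genes (0.0%). The unadjusted p was under 0.05 for 16 members and 3000 genes, and DESeq2 called 10 members and 1221 genes. The lowest adjusted p was that of Pdgfrb, 7.02 ± 1.62 (SE), adjusted p = 0.098 with edgeR, and Col4a2 had 3.43 ± 0.85 (SE), adjusted p = 0.101. Against CD11clo Mϕ, 0 of 36 were called (0.245% of all genes). The unadjusted p was under 0.05 for 4 members and 3289 of 13877 genes, and DESeq2 called 3 members and 1419 genes. Col14a1 had -3.85 ± 1.02 (SE), adjusted p = 0.0826 there, with all KRM RAS libraries below the KRM Sham mean and all CD11clo RAS libraries above the CD11clo Sham mean of 7.07 CPM. Acta2 had 7.46 ± 1.63 (SE), adjusted p = 0.067. These counts changed with 1 library: without KRM RAS replicate 1, edgeR called 11 of 36 members against CD11chi Mϕ (7.4% of all genes) and 3 of 36 against CD11clo Mϕ (16.1%). The filter could let members through on their KRM RAS levels alone, so these counts are no support for a change of the members as a whole. In 1 fit over all 6 groups it called 0 (0.11% of all genes) and 1 (0.4%).

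Genes of the same pathways outside the 36 were counted in KRM. Of 25 collagen folding and modifying enzymes in the table, 21 were tested and 4 were higher in RAS, 0 lower, with the lowest adjusted p for Serpinh1, the collagen chaperone (4.84 ± 0.94 (SE), adjusted p = 0.0291 with edgeR), Pcolce, which speeds procollagen cleavage (4.80 ± 1.00 (SE), adjusted p = 0.0327), and Bmp1, the procollagen protease itself (2.48 ± 0.61 (SE), adjusted p = 0.0453). Serpinh1 stood at 2.40, 2.90, 4.46 and 3.03 CPM in KRM Sham and 5.36, 159.9 and 125 CPM in KRM RAS, so that replicates 2 and 3 were again the high ones. Of 18 other basement membrane genes 15 were tested and 3 were higher, 0 lower, namely Col4a6, Lama5 (5.78 ± 1.15 (SE), adjusted p = 0.03) and Lamb1 (4.36 ± 1.11 (SE), adjusted p = 0.0494). Col4a6 was at 0 counts in all 4 KRM Sham libraries and at 1.23, 4.62 and 2.98 CPM in KRM RAS (adjusted p = 0.0282 with edgeR), so it has no fold change. Of 44 other interstitial matrix genes 28 were tested, 9 higher and 3 lower. The gene of that list with the lowest adjusted p was Matn2, a filament-forming adaptor of the matrix, which fell: it was at 53.3, 67.1, 63.1 and 65.9 CPM in KRM Sham and 34.8, 23.4 and 24.8 CPM in KRM RAS (-1.24 ± 0.16 (SE), adjusted p = 0.0144), next to Ltbp3 (3.36 ± 0.60 (SE), adjusted p = 0.0257) and Spon1 (3.75 ± 0.67 (SE), adjusted p = 0.0257). Of 33 other fibroblast and mural genes 14 were tested and 9 were higher, 0 lower, led by Abcc9 (4.26 ± 0.77 (SE), adjusted p = 0.0262), Gata2 (4.85 ± 1.00 (SE), adjusted p = 0.0321) and Cald1 (5.57 ± 1.20 (SE), adjusted p = 0.0351). Over all genes 7.77% were called higher. As for the members, some of these passed the filter only with RAS libraries counted in: 0 of the 4 enzymes called higher, 2 of the 3 basement membrane genes (Lama5 and Col4a6), 2 of the 9 interstitial genes (Sparcl1 and Ctgf) and 5 of the 9 fibroblast and mural genes (Kcnj8, Abcc9, Cald1, Gata2 and Mcam). In CD11chi and CD11clo Mϕ the edgeR fit within each population, with every library, called no gene for RAS against Sham, these lists included. In CD11chi Mϕ edgeR called 5 of 14504 genes in 1 fit over all 6 groups and 39 of 12411 without RAS replicate 1.

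Markers of other cells were summed in the same libraries. In KRM RAS replicates 2 and 3 the 8 distal nephron markers summed to 5256 and 3881 CPM, and in replicate 1 to 147 CPM, against 11.8 to 242 CPM in KRM Sham. The 8 endothelial markers summed to 31.9 to 234 CPM in KRM RAS against 9.61 to 22.0 CPM in KRM Sham, with 3 of 6 tested called higher. The 5 podocyte markers summed to 3.12 to 94.8 CPM (1 of 1 tested called higher) against 2.09 to 4.12 CPM, and the 3 mesothelial markers to 6.14 to 38.9 CPM (2 of 2) against 0 to 0.320 CPM. T and NK cell markers were called higher for 5 of 5, at 26.1 to 241 CPM against 1.03 to 2.04 CPM, but there replicate 1 was the highest. These counts stand beside 7.77% of all genes called higher, and the filter shaped them: all 5 T and NK cell markers, both mesothelial markers, both distal nephron markers called and 1 of the 3 endothelial markers called passed only with the RAS libraries counted in, while the podocyte marker passed in Sham too. The 12 macrophage markers summed to 11655 to 19528 CPM in KRM RAS against 21266 to 25586 CPM in KRM Sham, with 0 of 12 called higher and 1 lower. Proximal tubule, neutrophil, and B and plasma cell markers had 0 called, and of 9 dissociation stress genes 3 were lower. The part of any of these cell types in the members' levels was not tested.

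**Figure D5:**
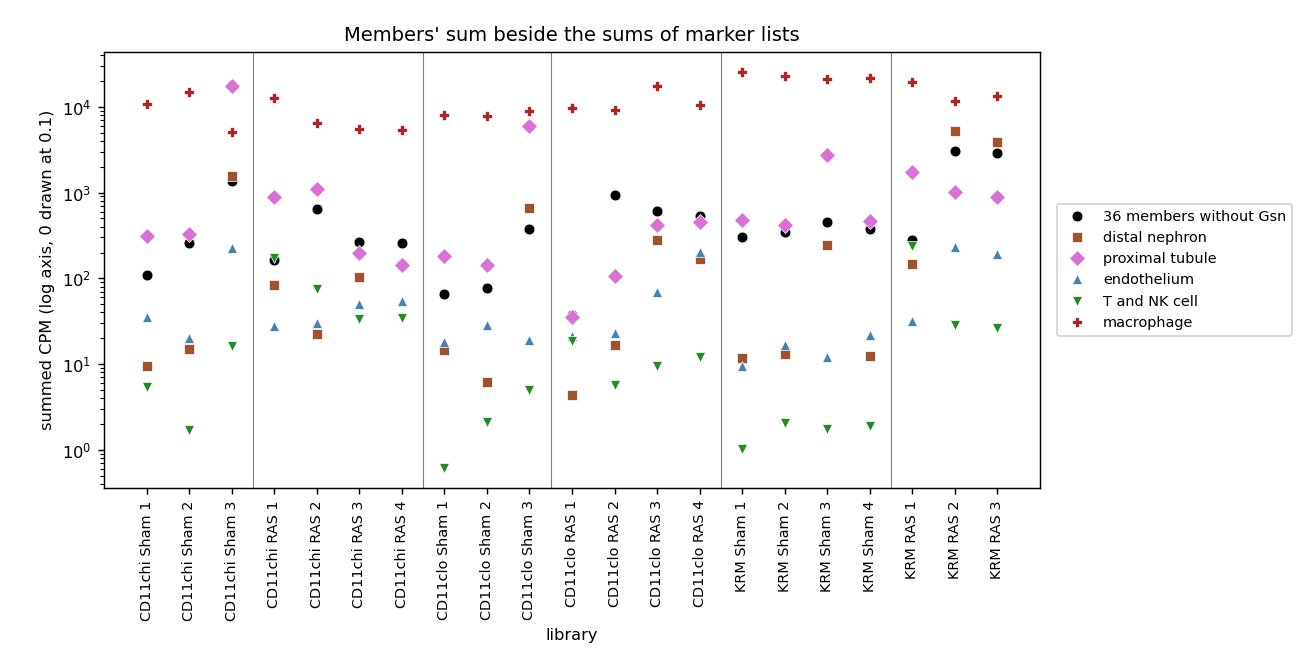
Summed CPM of the 36 genes without Gsn and of 5 marker lists in each library (log axis). In KRM RAS replicates 2 and 3 the members (3074 and 2925 CPM), distal nephron and endothelial markers are high together and the macrophage markers lie below the KRM Sham range of 21266 to 25586 CPM; the proximal tubule markers peak in replicate 3 of each Sham group.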

How the data were processed

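Macrophages of 3 populations were sorted from Sham and RAS kidneys, and full-length cDNA libraries made from small RNA amounts were sequenced as paired-end reads. The authors aligned the reads to mm10 with OmicSoft's OSA aligner and the Ensembl release of that time, and deposited estimated counts per gene. They also deposited a table of log2(TPM + 1) values, scaled and quantile normalised, which was used here only for the comparison of the 2 tables and for limma. Of 37620 lines in the count table, 3730 shared a gene name with another and were summed, leaving 34236 names. Counts were rounded to whole numbers, since 9.6 to 14.1% of the lines of a library were not whole. CPM is the count times 1000000 over the library's total (6891142 to 18592381), and intervals and floors cover counting error only.

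Tests used edgeR 4.0.16 in R 4.3.3 (quasi-likelihood F test, TMM scaling, filterByExpr with a minimum count of 10) on the libraries of the groups compared, with Benjamini-Hochberg adjustment over all genes tested and a threshold of 0.05. The SE printed for edgeR is the absolute log2 fold change over the square root of the F statistic, as the test itself gives none. Differences between responses came from the interaction in a fit of 4 groups. The fitting code was tested on simulated data. Alternatives were DESeq2 (1.42.0), limma (3.58.1) for the table of log2 values, other scalings, no filter, 1 fit over all 6 groups, a replicate block, and leaving out each library in turn. The labels number the replicates. Sham libraries of equal number in different populations all correlated over 0.1 in their deviations from the group means (0.182 to 0.661). CD11chi replicates 1 and 2 nevertheless matched another CD11clo number best. RAS and Sham libraries of equal number did not correlate throughout (-0.262 to 0.385). All members are named. Of the lists of collagen enzymes, basement membrane, interstitial matrix, and fibroblast and mural genes, the 3 genes with the lowest adjusted p are named. The marker lists of other cells are given as sums or counts of genes called. The members and lists were chosen with earlier results of these data known. Gene bounds and exon lengths were taken from GENCODE. RefSeq promoters (250 bases before to 50 from the start site, GRCm38.p6) matched 24 of 36 members. Proteins were not used here.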

Additional observations from a re-analysis of the deposited data

Results flagged for a closer look

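In groups of 4 libraries, a level was singled out where the highest or lowest library stood apart from the other 3 by more than Dixon's 95% critical value. Of 108 combinations of a member and a group of 4 libraries, 15 did so, where chance gives about 1 in 20, and members that share a library are not independent.

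CD11chi RAS replicate 2 was above the other CD11chi RAS libraries in 4 genes. Dcn was at 153.1 CPM against 6.76 to 30.11 CPM, Col5a1 at 9.87 against 0.53 to 1.98 CPM, Fbln1 at 8.42 against 0.21 to 0.99 CPM, and Col5a2 at 5.37 against 0.10 to 0.82 CPM. CD11chi RAS replicate 1 was high in Col14a1, at 47.75 CPM against 5.73 to 7.69 CPM, and low in Lox, at 0.11 CPM (1 count) against 0.79 to 0.92 CPM.

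Among CD11clo RAS libraries, replicate 1 had Col18a1 at 0.21 CPM (2 counts) against 29.81 to 32.16 CPM in the others. Replicate 2 had Eln at 8.77 CPM against 0 to 1.47 CPM, and replicate 3 had Col15a1 at 3.73 CPM against 0.85 to 1.25 CPM.

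Among KRM Sham libraries, replicate 3 had Igfbp7 at 123.98 CPM against 14.41 to 21.63 CPM, Col18a1 at 6.56 against 1.15 to 1.39 CPM, and Postn at 0.75 CPM (14 counts) against 0 to 0.11 CPM. That library was also the highest of KRM Sham in proximal tubule and distal nephron markers (2771 and 242 CPM), and the part of those cells was not tested. Replicate 4 had Col3a1 at 12.42 CPM against 5.26 to 6.19 CPM, Col5a2 at 0.84 CPM (8 counts) against 0, and Eln at 0.42 CPM (4 counts) against 0.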

How the results depend on the processing

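Scaling by library totals or by median-of-ratios size factors kept the direction and the call of all 19 calls over members tested here. With DESeq2 the number of members called for RAS against Sham was 21 of 25 in KRM (24.6% of all genes), 5 in CD11chi Mϕ (1.48%) and 4 in CD11clo Mϕ (0.87%), the last pair 0 with edgeR. It was 3 for KRM against CD11chi Mϕ (14.6%), 3 for CD11chi against CD11clo Mϕ (10%), and 10 and 3 for the response of KRM against that of CD11chi (8.64%) and CD11clo Mϕ (10.2%). Limma on the log2 table called 23 of 31 members for RAS in KRM (18.5%), 0 for KRM against CD11chi Mϕ (2.78%), 6 for KRM against CD11clo Mϕ (35.8%), 1 for CD11chi against CD11clo Mϕ (0.764%), and 5 and 6 for the responses (0.95% and 10.4%). Without the KRM RAS column 1 that did not match the counts, an alternative chosen after seeing the data, these were 28 for RAS in KRM (52.4%) and 15 and 10 for the responses (7.83% and 28.0%). For KRM against CD11chi Mϕ the 1 call was lost with no filter (0) and with 1 fit over all 6 groups (0; 4.38%), and that fit called 1 member for the response of KRM against CD11clo Mϕ (0.4%). It called 17 of 36 members for RAS in KRM (7.82%), all higher, and Col14a1 was not among them (-1.21, adjusted p = 0.369).

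With a replicate block the number called for RAS in KRM was 0 of 25, beside 42 of 12852 genes. The median log2 fold change over those members was 3.66, beside 3.82 without the block. Of them 16 had an unadjusted p under 0.05, as had 3086 of all genes. The check of pairing, however, did not hold for every RAS and Sham pair (correlations of -0.262 to 0.385), and not every library correlated best with its own number. Between Sham populations, libraries of equal number correlated, but CD11chi replicates 1 and 2 matched another CD11clo number best. There the block gave 0 for KRM against CD11chi Mϕ and 3 for CD11chi against CD11clo Mϕ. The block changed no call of the RAS comparisons in CD11chi and CD11clo Mϕ.

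Leaving out 1 library at a time gave 0 to 1 members for RAS in CD11chi Mϕ (0.314% of all genes at the highest), 0 to 0 in CD11clo Mϕ (0.0%) and 0 to 34 in KRM (50.2%). It gave 0 to 2 for KRM against CD11chi Mϕ (6.95%), 3 to 6 for KRM against CD11clo Mϕ (6 of 21, beside 47.1% of all genes, without CD11clo Sham replicate 3, and 5 of 23, beside 33.2%, without replicate 1), 0 to 2 for CD11chi against CD11clo Mϕ (5.7%), and 0 to 11 and 0 to 3 for the responses, with the highest values without KRM RAS replicate 1 (7.4% and 16.1%). With KRM RAS replicates 2 and 3 both left out, 1 member was called in KRM (1.3% of all genes), and the fitted log2 change was -0.30 for Col4a1, -1.31 for Myl9 and -0.97 for Tagln. Members found in every library numbered 4 at 1 CPM and 7 at more than 3 counts. The cause of these changes was not tested.

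With 3 or 4 libraries a group, and with 11 members too low in KRM to test, levels near 3 counts cannot be ordered.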
